A study of Macaca mulatta with 24 samples.

Results

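TFCP2L1, TFCP2, UBP1, GRHL1, GRHL2 and GRHL3 are the 6 genes of the CP2 and grainyhead transcription factor family. They were taken by symbol from a table of 35432 genes, and all 6 were found and passed the filter on low values, which asked for 10 or more in 4 libraries or more. The samples were airway epithelial cells from the trachea and bronchi of 4 adult female rhesus macaques, S1 to S4, grown on porous inserts and left to differentiate with their upper face in air and retinoic acid below. S1 was 5463 days old, S2 2930 days, S3 2238 days and S4 1128 days, and as every age was that of a single animal, effects of age and of animal cannot be told apart. Cultures were given diluted whole wood smoke or filtered air for 6 hours a day, and RNA was taken after 1 day, after 5 days, or after 5 days and a further 7 days without exposure (the recovery libraries). Smoke after 1 day, air after 1 day, smoke after 5 days, air after 5 days, smoke after recovery and air after recovery had 4 libraries each, 1 from every animal, and the labels name no transgene, deletion or other agent.

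TFCP2L1 was selected on a measured value, its lower level in smoke than in air cultures after recovery in an earlier reading of the same table, and its relatives were added by name. The recovery values of all 6 genes are therefore given as a description, with no test. Smoke against air at 1 day and at 5 days, and 5 days against 1 day, used no recovery library as a group compared, and these were tested with limma on log2(value + 1) over all 14062 genes that passed the filter. A gene was called where its Benjamini-Hochberg adjusted p over those genes was under 0.05. Shares of all genes called count both directions unless a direction is named.

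The family shares a DNA-binding domain and falls into a CP2 branch (TFCP2, also called LSF or CP2, UBP1 and TFCP2L1) and a grainyhead branch (GRHL1, GRHL2 and GRHL3). Grainyhead factors switch on genes of cell junctions and of the surface barrier in epithelia, and GRHL2 in particular keeps E-cadherin, claudin and epithelial splicing genes active in lung and airway epithelium. TFCP2L1 is best known from mouse embryonic stem cells, where it acts downstream of the cytokine LIF and STAT3, and from the mouse kidney collecting duct, where it takes part in the choice between principal and intercalated cells with the Notch ligand gene Jag1. In the airway its transcript has been listed among those of ionocytes, a rare cell type that also uses FOXI1.

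Libraries summed to 11.8 to 15.2 M normalized counts, and the depth was about 9.46 to 17.4 M reads. Epithelial genes were high in them (EPCAM up to 3291 and KRT5 up to 57570 normalized counts), and the marker lists of other cell types were mixed. Of 6 fibroblast markers, LUM was at 0 in all 24 libraries and DCN reached 2.155, COL1A2 21.73, COL1A1 33.85 and COL3A1 66.96, while PDGFRA was at 339.8 to 684.8. Of 4 endothelial markers, CDH5 was at 0 in all 24, while VWF reached 120.9, PECAM1 179.8 and KDR 20430. Of 5 leukocyte markers, CD79A reached 1.609, PTPRC 1.687 and CD3E 8.638, while CD68 reached 932.2 and LYZ 4679. One library stood apart, that of S1 in air at 5 days, whose median correlation with the rest was 0.86, against 0.931 to 0.956 for the other 23. Of its epithelial genes, E-cadherin (CDH1, 297.9), ESRP1 (990.5) and ESRP2 (389.1) were the lowest of all 24 libraries, whereas CLDN4 (6252), RAB25 (3681), SPINT1 (6620) and OVOL2 (399.4) were the highest. It is called the S1 air library here, and log2 differences of single genes of the 6 in which it is a compared library are given with and without it. Medians of the 6 genes and of the gene lists, and adjusted p values with the block, are given with it, unless stated.

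TFCP2L1 (ENSMMUG00000008829) covered the widest range of the family over all 24 libraries, an 8.48-fold span between 649 and 5506 normalized counts. The 5506 was a recovery value, and recovery values chose the gene, so this width is no separate result. The 649 was that of the S1 air library. Over 1 day and 5 days alone TFCP2L1 ran from 649 to 2571, while GRHL2 ran from 235 to 1101, a 4.69-fold span. In the order S1 to S4, the 1-day values of TFCP2L1 were 2368, 2571, 2276 and 2187 in smoke, against 1766, 2118, 2101 and 1804 in air. After 5 days they were 1773, 1427, 1358 and 1325 in smoke, against 649, 920, 1656 and 1123 in air. All 4 smoke cultures stood above all 4 air cultures at 1 day, while at 5 days the groups overlapped and the S3 air culture was higher than its smoke partner. After recovery they were 1519, 2056, 2034 and 1713 in smoke, against 3417, 5506, 4524 and 4510 in air. The lowest recovered air culture was thus above the highest smoke culture of any time. By group mean the order was air after recovery (4489 ± 854, SD, n = 4 here and below), smoke at 1 day (2350 ± 164), air at 1 day (1948 ± 188), smoke after recovery (1830 ± 260), smoke at 5 days (1471 ± 206) and air at 5 days (1087 ± 426). Air after recovery did not overlap smoke at 1 day, nor did smoke at 1 day overlap air at 1 day, whereas from air at 1 day downwards each group overlapped the next.

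**Figure D1:**
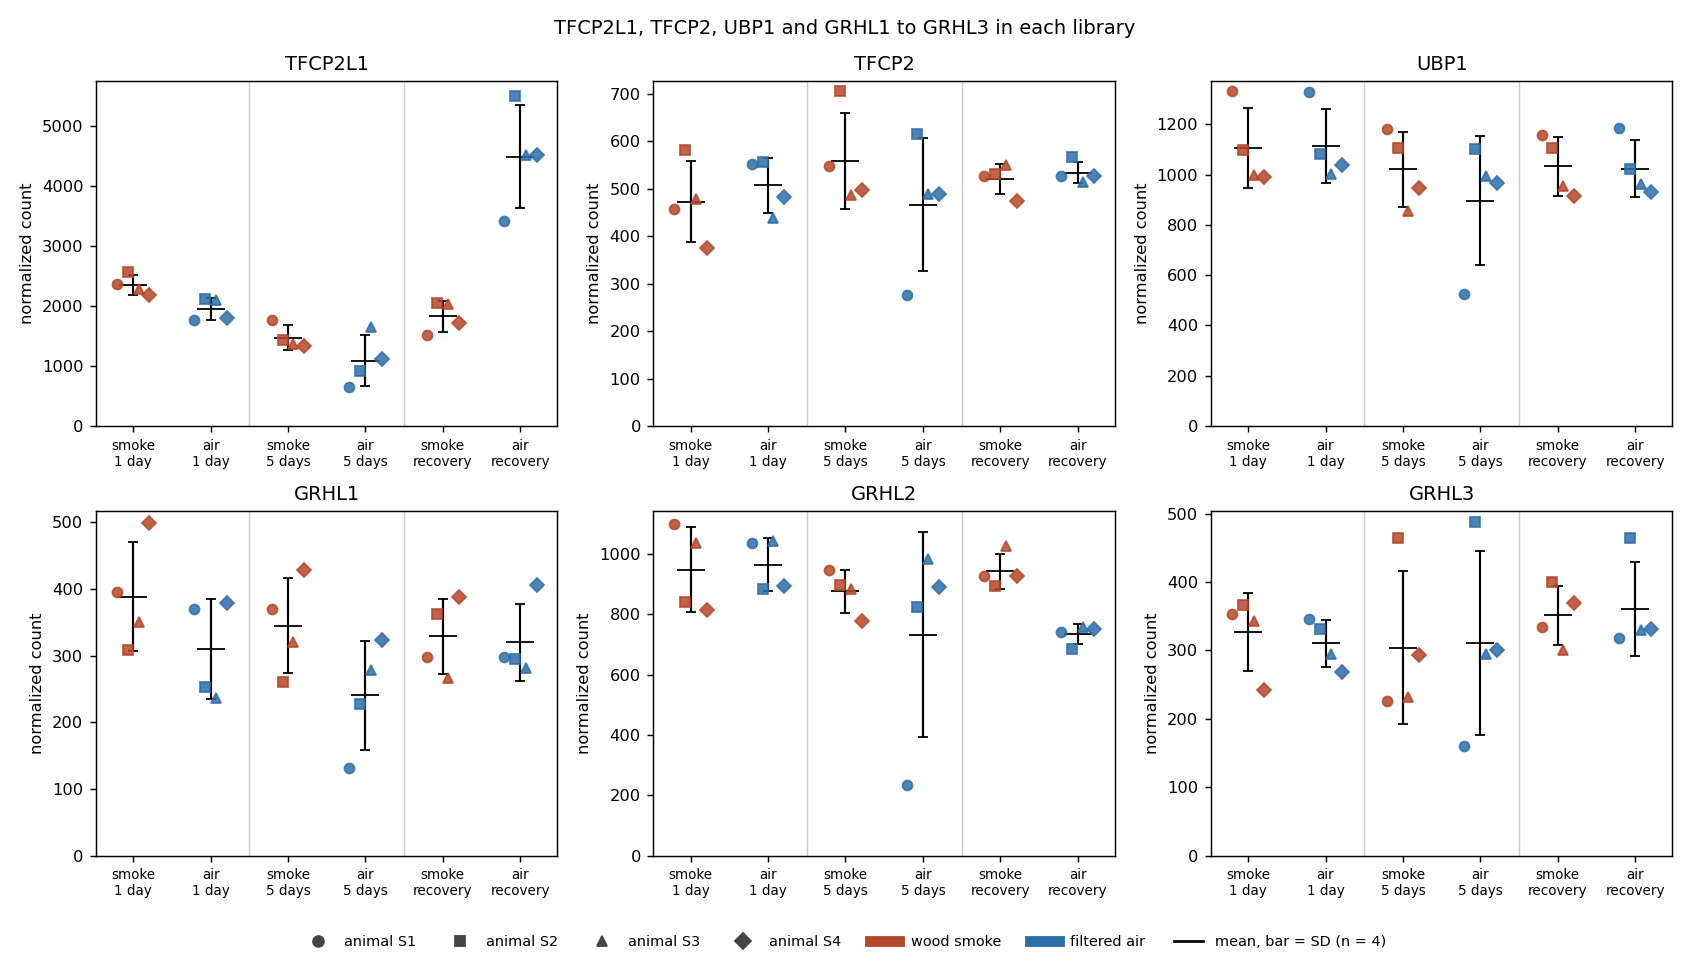
Normalized count of each of the 6 genes in every library, by group, with smoke in red and air in blue, a symbol for each animal, and the mean with its SD (n = 4); each panel has its own linear axis from 0. TFCP2L1 in air after recovery lies between 3417 and 5506, above all other TFCP2L1 values, and the lowest value of each of the 6 genes is that of the 5-day air library of S1.

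Smoke against air did not call any of the 6 genes at 1 day or at 5 days. At 1 day 0 of 6 were called by limma and 0 had an unadjusted p under 0.05, where 0.0284% of all genes tested were called. With the animal added to the fit as a block 0 of 6 were called as well, where 0.0782% of all genes were. At 5 days 0 of 6 were called by limma, where 0.0711% of all genes were, and TFCP2L1 and GRHL1, 2 of 6, had an unadjusted p under 0.05. With the block 0 of 6 were called, where 1.69% of all genes were. The median log2 difference of the 6 genes was 0.02 at 1 day, against 0.00 over all genes, and 0.37 at 5 days, against 0.01 over all genes. All 6 lay above 0 at 5 days in the fit with the S1 air library and only TFCP2L1, TFCP2 and GRHL1 did so without it.

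TFCP2L1 at 1 day was 1.21-fold higher in smoke than in air (log2 difference 0.27 ± 0.20, SE; 95% interval −0.14 to 0.69; limma adjusted p = 1). It was higher in 4 of 4 animals, by 0.42, 0.28, 0.12 and 0.28, and the groups did not overlap, as held upwards for 1.51% of all genes. At 5 days the log2 difference was 0.51 ± 0.20 (95% interval 0.10 to 0.92; limma adjusted p = 0.43, and 0.143 with animal as a block). Per animal it was 1.45, 0.63, −0.29 and 0.24, so S1 carried the largest and S3 went the other way. Leaving out the S1 air library brought it to 0.29 ± 0.17 (limma adjusted p = 0.632). The change of the smoke effect between the exposure times was 0.24 ± 0.28 (95% interval −0.35 to 0.82; limma adjusted p = 0.957), or 0.02 ± 0.23 with the S1 air library left out. For this change 0 of the 6 genes were called by limma, where 0.0142% of all genes were, nor did any reach an unadjusted p under 0.05. With the block it was again 0 of 6, where 0.0427% of all genes were called.

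TFCP2L1 in air was lower at 5 days than at 1 day, and after recovery it was above its 1-day level. At 5 days it was 1087 ± 426, against 1948 ± 188 at 1 day, which is 1.89-fold lower (log2 difference −0.92 ± 0.20; 95% interval −1.33 to −0.51; limma adjusted p = 0.0156, and 0.00252 with animal as a block). It was lower in 4 of 4 animals, by log2 differences of −1.44, −1.20, −0.34 and −0.68, and the groups did not overlap, as held downwards for 7.25% of all genes. It was the only member called, 1 of 6, where 3.98% of all genes were called and 2.32% called lower, and with the block 1 of 6, where 19.4% of all genes were called. Leaving out the S1 air library gave −0.70 (limma adjusted p = 0.0268), in a fit that called 4.26% of all genes. The call was lost without all libraries of S2 (−0.82, limma adjusted p = 0.109) or of S4 (−0.996, limma adjusted p = 0.137). The summed basal cell markers of these air groups, 41509 to 59817 at 5 days against 65495 to 81909 at 1 day, did not overlap either (without KRT5 they did), and their part in the fall was not tested.

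In smoke the drop of TFCP2L1 over the same interval pointed the same way but passed the threshold only under some fits. It averaged 1471 ± 206 at 5 days, against 2350 ± 164 at 1 day (1.61-fold lower; log2 difference −0.68 ± 0.20; 95% interval −1.09 to −0.27; limma adjusted p = 0.235). With animal as a block the limma adjusted p was 0.0421. It was 0.0279 when the S1 air library, which enters only through the shared estimate of the spread, was left out. Without all libraries of S1 the difference was −0.77 (adjusted p = 0.0263). It was lower in 4 of 4 animals, by log2 differences of −0.42, −0.85, −0.74 and −0.72, and the groups did not overlap, as held downwards for 4.3% of all genes. Calls among all genes tested were 0.284% without the block, 3.48% with it and 2.07% without the S1 air library. The other 5 genes were not called over this interval in either atmosphere.

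**Figure D2:**
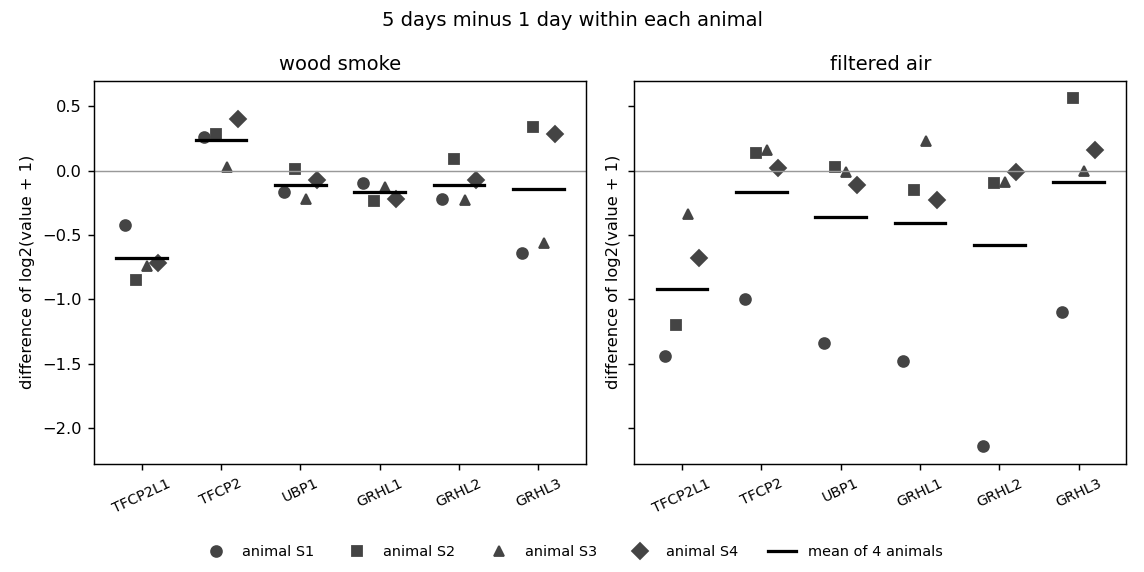
Difference of log2(value + 1) between 5 days and 1 day within each animal, for smoke (left) and air (right), with a symbol for each animal and a bar at the mean of 4. TFCP2L1 is below 0 in all 4 animals in both panels (means −0.68 in smoke and −0.92 in air), and in air the S1 symbol lies below those of the other animals for all 6 genes.

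After recovery, TFCP2L1 stood at 1830 ± 260 in smoke and 4489 ± 854 in air, 2.44-fold lower in smoke. The log2 difference was −1.28, with −1.17, −1.42, −1.15 and −1.40 in the 4 animals (SD 0.14), and leaving out any 1 library moved it between −1.41 and −1.18. Smoke and air did not overlap, as held downwards for 4.37% of all genes, and limma called 0.242% of all genes in this comparison; neither share is read further because this difference chose the gene. Set beside the earlier libraries, the recovered air cultures lay far above both earlier air groups, and the mean of the recovered smoke cultures lay between those of the earlier smoke groups. Against 5 days, the recovered cultures differed by 0.31 in smoke, with 3 animals up and S1 down by −0.22, and by 2.11 in air (4.31-fold), with 4 of 4 up and no overlap, as held upwards for 8.29% of all genes. Against 1 day, they differed by −0.37 in smoke, with 4 of 4 animals down, and by 1.19 in air (2.28-fold), with 4 of 4 up. Neither of the last 2 sets of groups overlapped, as held downwards for 8.7% of all genes in smoke and upwards for 7.92% in air. Smoke and air of 1 time share no library, but each recovered group serves in 3 of these differences, and none of them was tested.

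**Figure D3:**
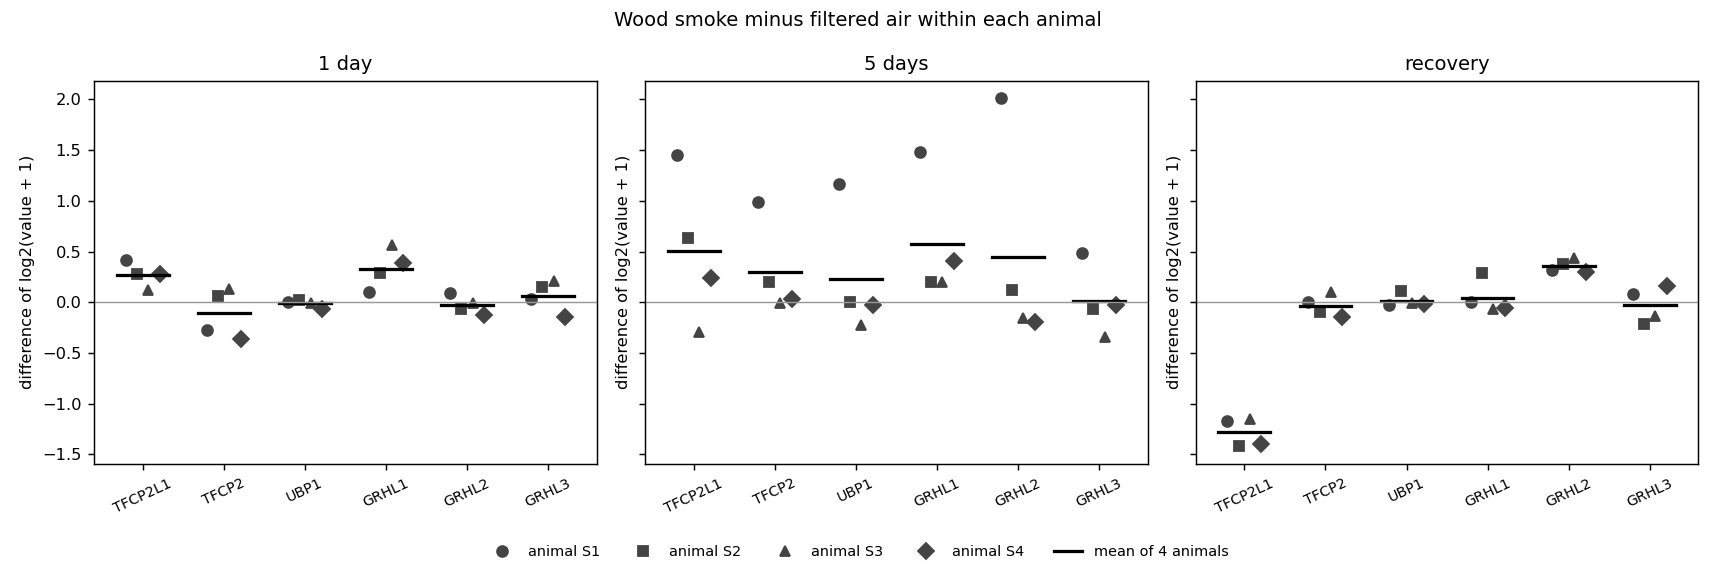
Difference of log2(value + 1), smoke minus air, within each animal at 1 day, 5 days and recovery for the 6 genes, with a bar at the mean of 4 animals. After recovery TFCP2L1 lies between −1.42 and −1.15 and GRHL2 between 0.30 and 0.44, while at 5 days S1 has the highest value of every gene.

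Basal cell markers were lower where TFCP2L1 was lower in some of these comparisons and not in others. The sum of the 10 basal markers found in the table (KRT5, TP63, NGFR, ITGA6, ITGB4, COL17A1, LAMA3, LAMB3, DLK2 and DST) ranged over 65031 to 82049 normalized counts in smoke and 65495 to 81909 in air at 1 day, and over 38894 to 53431 in smoke and 41509 to 59817 in air at 5 days. After recovery it ranged over 28626 to 48782 in smoke and 66987 to 82121 in air. The sum was thus lower at 5 days than at 1 day without overlap in both atmospheres, and lower in smoke than in air without overlap after recovery, as TFCP2L1 was. It overlapped between smoke and air at 1 day and between recovered and 1-day air cultures, where TFCP2L1 did not, and from 5 days to recovery in smoke it was lower in S2, S3 and S4, in which TFCP2L1 was higher. KRT5 alone made up 33.3 to 77.0% of the sum over the 24 libraries. Summed without KRT5, a choice made after seeing the data, the other 9 markers gave 13648 to 24616 in smoke at 5 days, against 20920 to 35127 at 1 day, and 13733 to 26092 in air at 5 days, against 22545 to 34180 at 1 day, so that both sets overlapped. After recovery they gave 16399 to 25882 in smoke and 30910 to 48695 in air, still apart. From 5 days to recovery in smoke these 9 markers were higher in S2 (24616 to 25882) and S3 (13648 to 18894), as TFCP2L1 was. They were lower in S4 (18479 to 16399), where TFCP2L1 was higher, and higher in S1 (15545 to 20922), where TFCP2L1 was lower. After recovery all 10 markers were below 0 in the smoke against air fit (median log2 difference −0.92, against 0.01 over all genes). Limma called 2 of them lower, where 0.213% of all genes were called lower, the integrin gene ITGB4 (−1.04 ± 0.16, adjusted p = 0.00912) and the keratin gene KRT5 (−1.22 ± 0.22, adjusted p = 0.0173). The fit with the block called 6 of the 10 lower, where 3.41% of all genes were called in either direction. The fit without the S1 air library called 4 lower, where 2.51% were called in either direction. Other epithelial lists differed there too, with a median of −0.46 for squamous markers (4 of 5 tested below 0). It was 0.39 for ciliated markers (9 of 11 above 0) and 0.21 for secretory markers (6 of 9 above 0). Limma called 0 in each of these 3 lists, with or without the block, and 1 squamous marker lower without the S1 air library.

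Per 1000 counts of that sum, TFCP2L1 was 31.3 to 33.6 in smoke and 22.0 to 27.8 in air at 1 day, which did not overlap. At 5 days it was 26.7 to 38.5 in smoke and 10.9 to 32.6 in air, overlapping each other and the 1-day groups. After recovery it was 31.1 to 59.8 (median 54.5) in smoke and 44.3 to 67.5 (median 63.2) in air, so the ratio overlapped between smoke and air where the count did not. Within animals S1 to S4 it was 31.1, 53.0, 56.0 and 59.8 in smoke, against 44.3, 67.1, 67.5 and 59.4 in air, lower in smoke in 3 of 4 animals. Over the sum without KRT5 it was 72.6, 79.4, 107.6 and 104.5 in smoke, against 103.9, 113.1, 146.3 and 134.1 in air, lower in smoke in 4 of 4 animals, and the groups overlapped there too. At 1 day the ratio without KRT5 was 73.2 to 113.2 in smoke and 62.0 to 86.1 in air, which overlapped. Within air both ratios after recovery lay above those at 1 day in every library. The sum with KRT5 covered nearly the same range in both groups, 66987 to 82121 after recovery and 65495 to 81909 at 1 day. The sum without KRT5 did not, with 30910 to 48695 after recovery against 22545 to 34180 at 1 day, a higher but overlapping range. In these bulk libraries fewer cells of a type and less RNA per cell cannot be told apart, and the part of basal cells in the TFCP2L1 values was not tested.

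**Figure D4:**
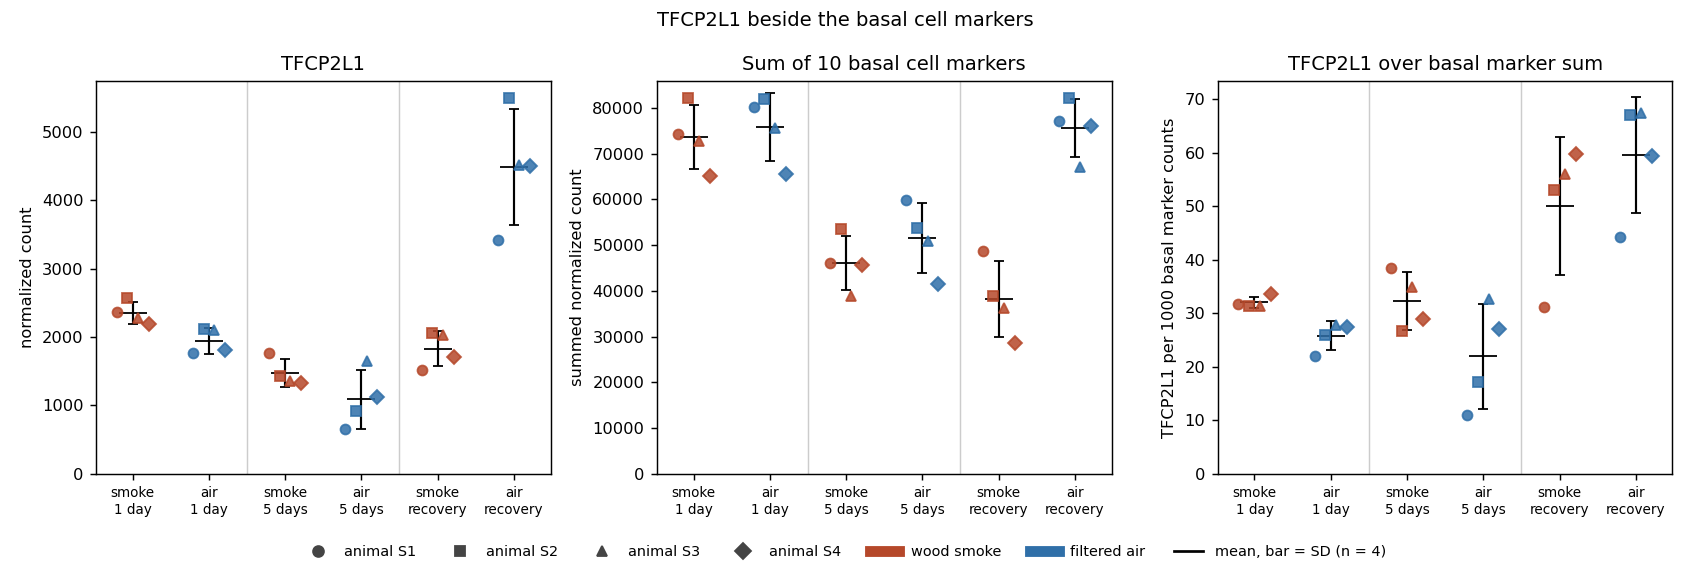
TFCP2L1 (left), the sum of 10 basal cell markers (middle) and TFCP2L1 per 1000 counts of that sum (right) in every library, by group, with the mean and SD (n = 4) and linear axes from 0. After recovery the smoke and air groups are apart in the left and middle panels and overlap in the right one.

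Of the 12 ionocyte markers, FOXI1, ASCL3, BSND and others were near 0 while some were expressed. FOXI1, the factor that defines this cell type, reached 1.603 normalized counts in its highest library, ASCL3 reached 1.276, STAP1 1.252, PDE1C 1.318, BSND 1.09 and ATP6V0D2 12.21. HEPACAM2 reached 18.41, the chloride channel gene CFTR 66.48 and ATP6V1C2 113.1, and DMRT2 was at 65.02 to 318.2. The sum of all 12 was 795.5 to 959.4 in recovered smoke cultures and 822.4 to 1000 in recovered air cultures, most of it from ATP6V1B1, a proton pump subunit gene, at 584.6 to 770.5 in smoke and 553.5 to 766.8 in air. Limma called 0 of the 5 tested in smoke against air at 1 day, 5 days and recovery, with or without the block, and 0 had an unadjusted p under 0.05 without it. Between 5 days and 1 day in air, where TFCP2L1 fell, DMRT2 differed by −0.91 ± 0.41 (limma adjusted p = 0.177) and was called lower with the block (adjusted p = 0.0011, where 19.4% of all genes were called), the only one of the 5. The part of ionocytes in the TFCP2L1 values was not tested.

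TFCP2 (ENSMMUG00000000152), a broadly expressed factor known for activating the thymidylate synthase gene at entry into S phase, had group means between 466.3 and 558.9. At 1 day it had 458, 581, 477 and 375 normalized counts in smoke, against 552, 556, 437 and 482 in air. The 5-day values were 547, 705, 486 and 497 in smoke, against 275, 614, 488 and 488 in air, and after recovery 527, 530, 550 and 474 in smoke, against 527, 566, 514 and 527 in air. Smoke and air overlapped at each time, and the only value under 375 was the S1 air library at 5 days. The log2 difference of smoke and air was −0.11 ± 0.18 at 1 day (95% interval −0.49 to 0.27) and 0.30 ± 0.18 at 5 days (95% interval −0.08 to 0.68; limma adjusted p = 0.618). It was 0.07 at 5 days with the S1 air library left out, and −0.04 after recovery.

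UBP1 (ENSMMUG00000016917), known as LBP-1 and needed for blood vessels of the mouse placenta, had nearly equal levels in smoke and air at 1 day and after recovery. At 1 day it had 1332, 1098, 997 and 991 normalized counts in smoke, against 1329, 1081, 1001 and 1040 in air. After 5 days it had 1180, 1104, 854 and 945 in smoke, against 524, 1102, 995 and 966 in air, and after recovery 1158, 1104, 954 and 914 in smoke, against 1184, 1023, 961 and 929 in air. The values followed the animal, with S1 highest in every group except air at 5 days, and smoke and air overlapped at each time. The log2 difference was −0.01 ± 0.18 at 1 day (95% interval −0.38 to 0.36), 0.23 ± 0.18 at 5 days (95% interval −0.14 to 0.60; limma adjusted p = 0.703) and 0.01 after recovery. At 5 days it was −0.01 once the S1 air library was left out.

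GRHL1 (ENSMMUG00000001535), which in mouse skin sustains the desmosomal cadherin gene Dsg1, was higher in smoke than in air in 4 of 4 animals at both exposure times, without passing the test. At 1 day it had 396, 309, 350 and 499 normalized counts in smoke, against 370, 253, 237 and 379 in air. After 5 days GRHL1 had 370, 261, 320 and 428 in smoke, against 132, 228, 278 and 323 in air. The groups overlapped at both times, and S4 was the highest animal in all 6 groups. The log2 difference was 0.34 ± 0.24 at 1 day (95% interval −0.16 to 0.83; limma adjusted p = 1) and 0.57 ± 0.24 at 5 days (95% interval 0.07 to 1.07; limma adjusted p = 0.472, and 0.115 with animal as a block). The 5-day difference was 0.31 ± 0.21 without the S1 air library. With the block and without that library, the 95% interval was 0.10 to 0.57 at 1 day (limma adjusted p = 0.181). At 5 days it was 0.04 to 0.55 in that fit (limma adjusted p = 0.169). After recovery GRHL1 had 298, 362, 267 and 388 in smoke, against 298, 295, 281 and 406 in air, a log2 difference of 0.04 with 2 animals up and 2 down. DSG1 itself reached 1.325 normalized counts in its highest library and did not pass the filter.

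GRHL2 (ENSMMUG00000020995), the member tied most closely to junction genes of airway epithelium, was higher in smoke than in air after recovery, with little difference earlier. At 1 day it had 1101, 842, 1037 and 816 normalized counts in smoke, against 1037, 883, 1045 and 896 in air. The values at 5 days were 947, 897, 884 and 779 in smoke, against 235, 824, 985 and 890 in air. The 235 of the S1 air library lay far below the next lowest 5-day value, 779, and the groups overlapped at both times. The log2 difference was −0.03 ± 0.28 at 1 day (95% interval −0.61 to 0.54) and 0.45 ± 0.28 at 5 days (95% interval −0.13 to 1.02; limma adjusted p = 0.637), and without the S1 air library the 5-day difference was −0.04 ± 0.10.

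After recovery GRHL2 had 926, 893, 1028 and 928 in smoke, against 743, 686, 759 and 751 in air. The groups did not overlap, as held upwards for 3.67% of all genes, and smoke was 1.28-fold higher, by log2 differences of 0.32, 0.38, 0.44 and 0.30 in the 4 animals (mean 0.36, SD 0.06). Set beside 1 day, recovered smoke cultures differed by 0.00 on the log2 scale with 2 animals up and 2 down, whereas recovered air cultures were lower in 4 of 4 animals, by 0.39 on average and without overlap, as held downwards for 8.23% of all genes. Recovered air cultures thus had TFCP2L1 above and GRHL2 below its 1-day level in all 4 animals. The basal sum was lower in smoke than in air after recovery, where GRHL2 was higher. With KRT5 counted it was nearly equal in range between recovered and 1-day air cultures. Without KRT5 its range was higher in the recovered air cultures. The part of the basal sum in the GRHL2 values was not tested.

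GRHL3 (ENSMMUG00000004463), needed for barrier formation and wound closure in mouse skin, differed little between smoke and air at any time. At 1 day it had 353, 367, 343 and 242 normalized counts in smoke, against 346, 331, 295 and 269 in air. After 5 days GRHL3 had 226, 465, 232 and 294 in smoke, against 161, 488, 295 and 301 in air, and after recovery 335, 400, 300 and 370 in smoke, against 318, 464, 330 and 331 in air. S2 was highest in 5 of the 6 groups, and smoke and air overlapped at each time. The log2 difference was 0.06 ± 0.26 at 1 day (95% interval −0.47 to 0.59), 0.01 ± 0.26 at 5 days (95% interval −0.52 to 0.54) and −0.03 after recovery. With the S1 air library left out the 5-day difference was −0.27 ± 0.23 (95% interval −0.74 to 0.20), and after scaling to equal library totals the 1-day difference was −0.02.

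Between 5 days and 1 day in air, the log2 differences of the other 5 genes were −0.17 for TFCP2, −0.36 for UBP1, −0.41 for GRHL1, −0.58 for GRHL2 and −0.09 for GRHL3, none of them called (limma adjusted p of 0.195 to 0.856). For GRHL2 the animals gave −2.14, −0.10, −0.09 and −0.01, so nearly the whole difference was that of S1. With the S1 air library left out the 5 differences were 0.06 for TFCP2, −0.12 for UBP1, −0.15 for GRHL1, −0.10 for GRHL2 and 0.19 for GRHL3. In smoke the 5 differences were between −0.17 and 0.24 (limma adjusted p of 0.844 to 0.996).

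Most correlations between the 6 genes depended on 1 library. After the mean of each animal was subtracted, UBP1 and GRHL2 correlated at 0.95 (Pearson) over all 24 libraries and at 0.55 over the 23 without the S1 air library. TFCP2 and UBP1 correlated at 0.75 and −0.21 over the same libraries, GRHL1 and GRHL2 at 0.77 and 0.07, and TFCP2L1 and GRHL2 at 0.24 and −0.55. These libraries share animals and the table's scaling, so the coefficients are descriptions.

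The genes whose pattern was most like that of TFCP2L1, among 10056 genes with a symbol and a mean of at least 50, were SLC7A5, USP4, SETD1B, SLC7A1 and KCTD9. Their Pearson coefficients over 24 libraries, with animal means subtracted, were 0.96, 0.94, 0.93, 0.92 and 0.91, and over the 16 libraries of 1 day and 5 days alone they were 0.95, 0.95, 0.91, 0.95 and 0.83. These 16 are among the 24 that picked the genes, so they are no separate check. SLC7A5, a subunit of a transporter of large neutral amino acids, averaged 512 ± 123 normalized counts in smoke and 370 ± 74.2 in air at 1 day, and 327 ± 106 in smoke and 190 ± 31.2 in air at 5 days. After recovery it averaged 369 ± 101 in smoke and 816 ± 24.5 in air. Its order of smoke and air was that of TFCP2L1 at each time. SLC7A5 was picked for its likeness over these same libraries, so the shared order is no separate result. SLC7A1, a transporter of cationic amino acids, averaged 475 ± 126 in smoke and 836 ± 192 in air after recovery. USP4, a deubiquitinating enzyme gene, averaged 859 ± 48.6 in smoke and 1050 ± 20.3 in air there. For GRHL1 the most alike were ALDH3A2 (0.91), ATR (0.90) and TMC7 (0.88), whose coefficients without the S1 air library were 0.78, 0.69 and 0.68. For GRHL3 they were SCRN3 (0.86), ALKBH8 (0.83) and NAALADL2 (0.82), with 0.74, 0.67 and 0.65 without it.

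Genes linked to TFCP2L1 in mouse stem cells and kidney were a list of 12, of which 10 were tested. In smoke against air, 0 of 10 were called at 1 day, at 5 days and after recovery by limma, and 0 with the block. An unadjusted p under 0.05 was reached by 1, 0 and 1 without the block and by 2, 1 and 2 with it. Their median log2 difference was 0.00 at 1 day, 0.20 at 5 days and −0.28 after recovery, against 0.00, 0.01 and 0.01 over all genes. The 5-day median changed sign with the S1 air library left out, to −0.10, with 4 of the 10 above 0 and 6 below. The feedback inhibitor SOCS3, a target of STAT3, was at 64.31 to 211.5 normalized counts in smoke and 165 to 257.6 in air at 1 day (log2 difference −1.17 ± 0.43, limma adjusted p = 1, and 0.0954 with the block). STAT3 had a difference of 0.26 ± 0.14 at 5 days (limma adjusted p = 0.586). JAG1, the Notch ligand gene bound by TFCP2L1 in mouse kidney, ranged over 130.9 to 310.4 in smoke and 296.4 to 535.3 in air after recovery (log2 difference −0.86 ± 0.37, limma adjusted p = 0.505), and the T-box gene TBX3 differed by −0.67 ± 0.38 (limma adjusted p = 0.703).

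JAG1 was called lower, alone of these 10, between 5 days and 1 day in air. It ranged over 38.65 to 184.9 normalized counts at 5 days, against 301.4 to 518.5 at 1 day (log2 difference −1.61 ± 0.37; limma adjusted p = 0.0217), so that 1 of 10 was called, where 3.98% of all genes were called and 2.32% called lower. Excluding the S1 air library gave −1.06 ± 0.25 (limma adjusted p = 0.0237). In smoke over the same interval JAG1 differed by −0.61 ± 0.37 (limma adjusted p = 0.751), and 0 of 10 were called, with 1 (KLF2) at an unadjusted p under 0.05. TBX3 was also called in air in the fit with the block (−0.80, limma adjusted p = 0.0475), which called 19.4% of all genes. Of the 10 basal markers, 3 were called lower by limma in air over this interval, ITGB4 (−0.80), TP63 (−1.41) and DST (−1.19), beside the same 2.32%. With the S1 air library left out the differences of TP63 and DST were −0.83 and −0.65, both still called. In smoke 1 of 10 was called, ITGB4 (−0.79), where 0.284% of all genes were. ESRRB, a partner of TFCP2L1 in mouse stem cells, was at 0 in all 24 libraries, and NANOG reached 15.06.

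Grainyhead targets of epithelial junctions and identity were a list of 10, of which 9 were tested. None was called in smoke against air at 1 day, 5 days or recovery by limma, with or without the block. An unadjusted p under 0.05 was reached by 0, 2 and 0 without the block and by 0, 4 and 0 with it. Their median log2 differences were 0.11, −0.17 and 0.04 at those times. The 3 with the smallest p at 5 days were the splicing factor ESRP2 (0.30 ± 0.12, limma adjusted p = 0.438), the trafficking gene RAB25 (−0.46 ± 0.19, adjusted p = 0.476) and the protease inhibitor SPINT1 (−0.41 ± 0.21, adjusted p = 0.568, and 0.0593 with the block). These differences include the S1 air library, where ESRP2 was the lowest and RAB25 and SPINT1 the highest of all 24 libraries. With that library left out of the fit without the block, 0 of 9 had an unadjusted p under 0.05 at 5 days. After recovery, where GRHL2 itself was 1.28-fold higher in smoke, CLDN3 differed by 0.31 ± 0.30, OVOL2 by 0.17 ± 0.19 and SPINT1 by −0.16 ± 0.21 (limma adjusted p of 0.905, 0.935 and 0.947). CDH1 ranged over 2061 to 3140 in smoke and 2380 to 3527 in air there, so the groups overlapped. Between 5 days and 1 day in air 0 of 9 were called, with 3 at an unadjusted p under 0.05. With the block CLDN3 (0.83), CLDN4 (0.57), RAB25 (0.55) and SPINT1 (0.36) were called higher, 4 of 9, where 19.4% of all genes were called in either direction. With the S1 air library left out of the fit without the block these 4 differences were 0.77, 0.40, 0.26 and 0.17, none of them called. ZEB1, which GRHL2 represses, reached 4.75 normalized counts and did not pass the filter.

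Grainyhead targets of the surface barrier and of planar polarity were a list of 9, of which 8 were tested. None was called in smoke against air at 1 day, 5 days or recovery by limma without the block, and 0, 0 and 0 had an unadjusted p under 0.05. Their median log2 differences were 0.10, 0.00 and −0.30, and the 5-day median was 0.12 without the S1 air library. With the block TGM1, the transglutaminase that cross-links the cornified envelope and a target of GRHL3, was called lower in smoke after recovery (−0.84, limma adjusted p = 0.0218), where 3.41% of all genes were called. It ranged over 29.48 to 162.2 normalized counts in smoke and 62.26 to 246.3 in air there. KLF4, a differentiation factor gene, differed by 0.44 ± 0.34 at 1 day (limma adjusted p = 1), or 0.44 ± 0.11 with the block (limma adjusted p = 0.212). Between 5 days and 1 day in smoke, KLF4 was called lower only with the block (−0.86, limma adjusted p = 0.000143; 0.452 without it), where 3.48% of all genes were called. In air over that interval KLF4 (−0.36, adjusted p = 0.0271) and the planar polarity gene VANGL2 (−1.46, adjusted p = 0.0256) were called lower by limma only with the block, where 19.4% of all genes were. With the S1 air library left out of the fit without the block VANGL2 differed by −0.85 (limma adjusted p = 0.137). The 6 genes given as TFCP2 targets and partners had median log2 differences of −0.04, −0.04 and −0.31 at the 3 times, with 0 called with or without the block. Without the block 0 had an unadjusted p under 0.05, and with it 0, 1 and 2 did. TYMS, the thymidylate synthase gene, differed by −0.41 ± 0.31 after recovery (limma adjusted p = 0.839).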

How the data were processed

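Per the labels' protocols, libraries were made from poly-A selected RNA, and Bowtie2, RSEM, FastQC and Trim Galore are named in the submitters' processing notes. No source used here gives the build, the annotation, the normalizing tool or how reads shared by related genes were divided, so no coordinates are printed. The deposited values are a normalized signal per gene, called normalized counts. They are not whole, and set against the geometric mean over libraries each library had a median ratio of 1.01. Per library 80.1 to 84.2% of low values lay within 0.1 of a whole multiple of the value of 1 read, so reads were not recovered and no counting error is given; the spread between animals is the error. Depth is the deposited total divided by that step.

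Values were analysed as log2(value + 1) in 14062 genes with at least 10 in at least 4 of 24 libraries. Group means were fitted with limma 3.58.1 in R 4.3.3 (trend, two-sided, Benjamini-Hochberg adjustment, threshold 0.05). Fold changes on this scale understate changes of low genes. The numbers S1 to S4 are animals and pair the libraries: deviations from group means correlated at 0.303 to 0.804 within animals and at −0.443 to 0.0149 between them. The fit with animal as a block, a pseudocount of 5, no filter, equal library totals and leaving out each animal and library were the alternatives. The script was checked on simulated data.

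The 6 genes, the 12 gene lists and the tests were chosen with earlier results of these data known. Of 108 list symbols 9 had no match. Of each list the up to 3 genes with the smallest p in a smoke against air comparison, and those called, could be named, with the 5 genes most correlated with TFCP2L1 and 3 each for GRHL1 and GRHL3. DSG1, ESRRB, NANOG, ZEB1 and the fibroblast, endothelial and leukocyte markers, given as levels only, were added after their values were seen. So were CDH1, EPCAM, ESRP1 and, in the S1 air library, the other epithelial genes.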

Additional observations from a re-analysis of the deposited data

Results flagged for a closer look

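GRHL1 in the recovered air culture of S4 was 406 normalized counts, against 281 to 298 in the other 3 animals, a gap of 0.869 of the group's range, above Dixon's 95% limit for 4 values. S4 had the highest GRHL1 value in the other groups too. GRHL3 in the recovered air culture of S2 was 464, against 318 to 331 in the other 3, a gap of 0.906 of the range. Of 36 groups examined 2 passed this limit, and chance passes about 5% of groups.

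TFCP2L1 differed between smoke and air in opposite directions at the 2 ends of the study, by −1.28 on the log2 scale after recovery and by 0.27 at 1 day, each in all 4 animals. Between recovery and 1 day it also moved in opposite directions, by −0.37 in smoke and by 1.19 in air, each in all 4 animals. The smoke against air difference at 1 day was tested and not called (0.27 ± 0.20, SE), and its interval ran from −0.14 to 0.69. The differences that use recovery libraries were not tested, since the recovery values chose the gene.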

How the results depend on the processing

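The libraries of each animal are pairs by label, and the replicate block (animal as an additive term) changed 1 call among the 6 genes: TFCP2L1 in smoke, 5 days against 1 day, was called (−0.683, adjusted p = 0.0421), so 1 of 6 was called in place of 0. It changed no other call of the 6 genes and called more of all genes: 11 in place of 4 for smoke against air at 1 day, 237 in place of 10 at 5 days, 480 in place of 34 after recovery, 6 in place of 2 for the change of the smoke effect, 2728 in place of 559 for air and 490 in place of 40 for smoke, 5 days against 1 day. Leaving out the S1 air library of 5 days from the fit with the block made these 135, 887, 2639, 43, 2622 and 2656, and 1 of 6 was called in smoke, 5 days against 1 day. In that fit the log2 difference changed sign for UBP1 (−0.087), GRHL2 (−0.066) and GRHL3 (−0.25) in smoke against air at 5 days, for UBP1 (−0.074), GRHL1 (−0.041) and GRHL2 (−0.035) in the change of the smoke effect, and for TFCP2 (0.07) and GRHL3 (0.166) in air, 5 days against 1 day. None of these was called under any fit.

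Equal library totals gave GRHL3 −0.023 at 1 day and 0.109 for the change of the smoke effect, and called 1 gene at 1 day, 0 for the change of the effect and 890 in air, 5 days against 1 day. No filter gave 1 for the change of the effect, 350 in air and 23 in smoke, 5 days against 1 day. A pseudocount of 5 changed no sign and no call of the 6 genes. The cause of these shifts was not tested.

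Leaving out 1 animal or 1 library at a time, members called in 5 days against 1 day ranged over 0 to 1 in air (0 without S2 or without S4) and 0 to 1 in smoke (1 without S1 or without its 5-day air library). Calls among all genes ranged over 1 to 15 at 1 day, 2 to 53 at 5 days and 0 to 495 after recovery in smoke against air, over 0 to 3 for the change of the effect, and over 10 to 1476 in air and 9 to 290 in smoke, 5 days against 1 day. Differences that crossed 0, none of them called, ranged as follows. Smoke against air at 1 day ran over −0.106 to 0.076 for UBP1, −0.107 to 0.037 for GRHL2 and −0.006 to 0.196 for GRHL3. At 5 days it ran over −0.083 to 0.38 for UBP1, −0.076 to 0.658 for GRHL2 and −0.269 to 0.262 for GRHL3. The change of the effect ran over −0.029 to 0.465 for TFCP2L1, −0.066 to 0.395 for UBP1, −0.145 to 0.434 for GRHL1, −0.005 to 0.685 for GRHL2 and −0.329 to 0.202 for GRHL3. Over 5 days against 1 day, air ran over −0.322 to 0.107 for TFCP2 and −0.345 to 0.24 for GRHL3, and smoke over −0.368 to 0.022 for GRHL3.

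With 4 animals a group, an uncalled difference is limited by its interval and does not show equal levels. Counting error could not be separated from the spread between animals.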
